A study of Bos taurus with 8 samples.

Results

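A set of 76 cattle genes had their highest transcript levels in 2 of the sampled tissues, the abomasum and the ileum. They were chosen by the measured FPKM values themselves (fragments mapped to a transcript, scaled to its length in kilobases and to the mapped fragments of the library). The 2 highest libraries of a gene had to be abomasum and ileum, with an FPKM of at least 1 in both. The lower of them plus 1 had to reach at least 3 times the highest of the 6 other libraries plus 1. The rule was applied to 22808 genes, which are the loci of the deposited table that carry an Ensembl transcript identifier and span at least 300 bases. It picked 0.333% of them. Because the rule used all 8 libraries, the levels below are a description and carry no test.

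RNA-Seq was done with 1 library each for abomasum, ileum, rumen, mammary gland (labelled mammary/parenchyma), uterus (labelled uterus intercaruncular), frontal cortex, whole testes and nucleated blood cells. The labels give the tissue and no strain, age, sex, treatment or animal. The paper states that its tissues came from a Hereford cow and her progeny or relatives, and that they covered several stages of development. Which animal and stage each library came from is not in the labels. No difference between tissues has a replicate check, and tissue cannot be told apart from animal or stage. The tissues are mixtures of cell types, so fewer cells of a type and less RNA per cell cannot be told apart either.

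The abomasum is the glandular stomach of ruminants. Its lining is a simple columnar epithelium that secretes mucus, acid and digestive enzymes. The ileum is the last stretch of the small intestine, lined by a columnar epithelium with absorptive and goblet cells, and it holds much lymphoid tissue. The rumen, the largest forestomach, is lined by a stratified squamous epithelium, while the mammary gland and the uterus both contain glandular epithelium. The table names genes by transcript identifier alone, and 0 of 24469 identifiers matched a symbol in the RefSeq table of ARS-UCD2.0. No Ensembl annotation was searched. Genes are therefore given by their position on the UMD3.1 assembly, their known functions are left out, and the tissue labels could not be checked against marker genes. A position is the interval that the authors' software assigned. Where loci overlap it spans all of them.

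The depth behind the values was recovered from short loci and is on the scale of the authors' normalization. Abomasum had 13452000 reads and ileum 7555000, while the shallowest library, mammary gland, had 6082000 and the deepest, rumen, 15625000. For a transcript of 1000 bases, 1 FPKM corresponded to 9.78 reads in abomasum and 5.49 in ileum. Over the 8 libraries, the 3 reads that a listed value of 0 allows corresponded to 0.264 to 0.679 FPKM on such a transcript, which covers counting error and no difference between animals. None of the 76 genes was among the 15 genes with a failed or overloaded estimate in the table.

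Across the 76 genes the FPKM in abomasum ran from 2.66 to 14335.5 with a median of 41.9, and in ileum from 2.23 to 2076 with a median of 38.3. The medians of the other tissues were all below 1 FPKM. They were 0.513 in whole testes, 0.486 in uterus, 0.324 in mammary gland, 0.121 in rumen, 0.069 in nucleated blood cells and 0.040 in frontal cortex. Over all 22808 genes the medians were 2.15 in abomasum, 2.64 in ileum and 0.823 to 3.83 in the other tissues. The 456 values of the 76 genes in the other tissues included 338 (74.1%) below 1 FPKM and 155 (34.0%) listed at 0.

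**Figure D1:**
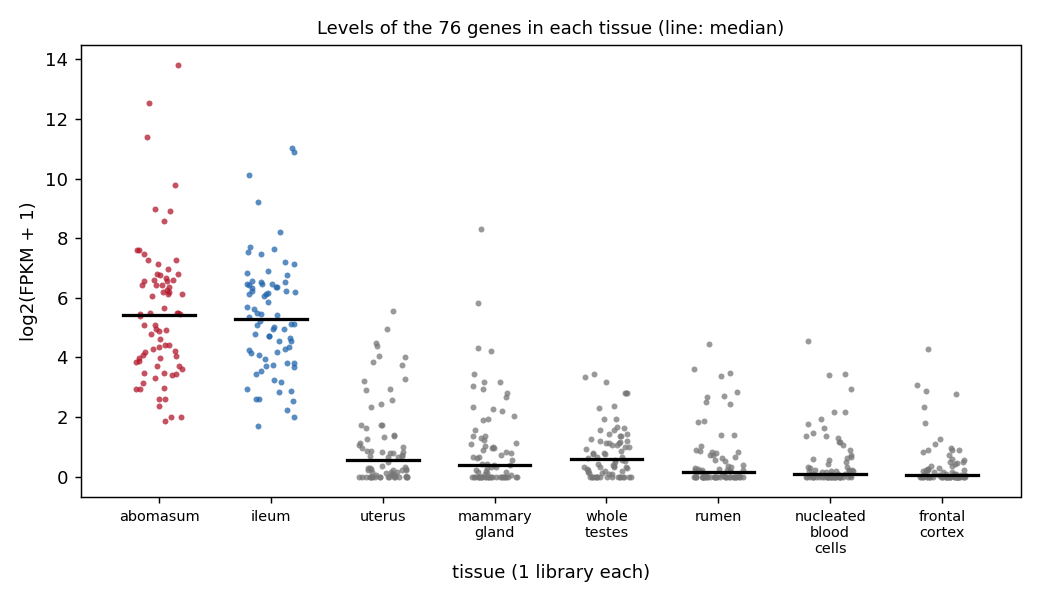
Level of each of the 76 genes (points) in each tissue, 1 library per tissue, as log2(FPKM + 1) on the vertical axis, with the median as a line. The median FPKM was 41.9 in abomasum and 38.3 in ileum and at most 0.513 in any of the other 6 tissues, and a few genes in mammary gland and uterus lie far above their tissue's median.

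The genes covered a wide range of abundance. The lower of the abomasum and ileum values had a median of 22.5 FPKM and was at least 10 FPKM in 57 genes, at least 100 FPKM in 9 and below 5 FPKM in 6. A median of 95.7% of a gene's summed FPKM over the 8 libraries fell in abomasum and ileum, and 58 genes had at least 90% there. The lowest share, 62.0%, belonged to the gene at chr28:28868033-29062925. It was measurable in every tissue, at 33.0 FPKM in abomasum, 40.3 in ileum, 10.1 in rumen, 9.60 in nucleated blood cells, 8.16 in uterus, 7.17 in mammary gland, 5.93 in whole testes and 4.04 in frontal cortex.

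Together the 76 genes took 3.53% of the summed FPKM of all genes in abomasum and 1.20% in ileum, against 0.0081% in rumen, 0.0096% in frontal cortex, 0.0098% in nucleated blood cells, 0.012% in whole testes, 0.047% in uterus and 0.074% in mammary gland. A few genes made up most of these sums. The 3 most abundant in abomasum, on chromosomes 5, 4 and 16, held 79.9% of the sum there. The 3 most abundant in ileum, on chromosomes 7, 16 and 8, held 52.5%. Without its own 3 genes, abomasum had a share of 0.708% and ileum 0.570%. Leaving out the 15 genes with failed or overloaded estimates gave 4.11% in abomasum and 1.47% in ileum.

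**Figure D2:**
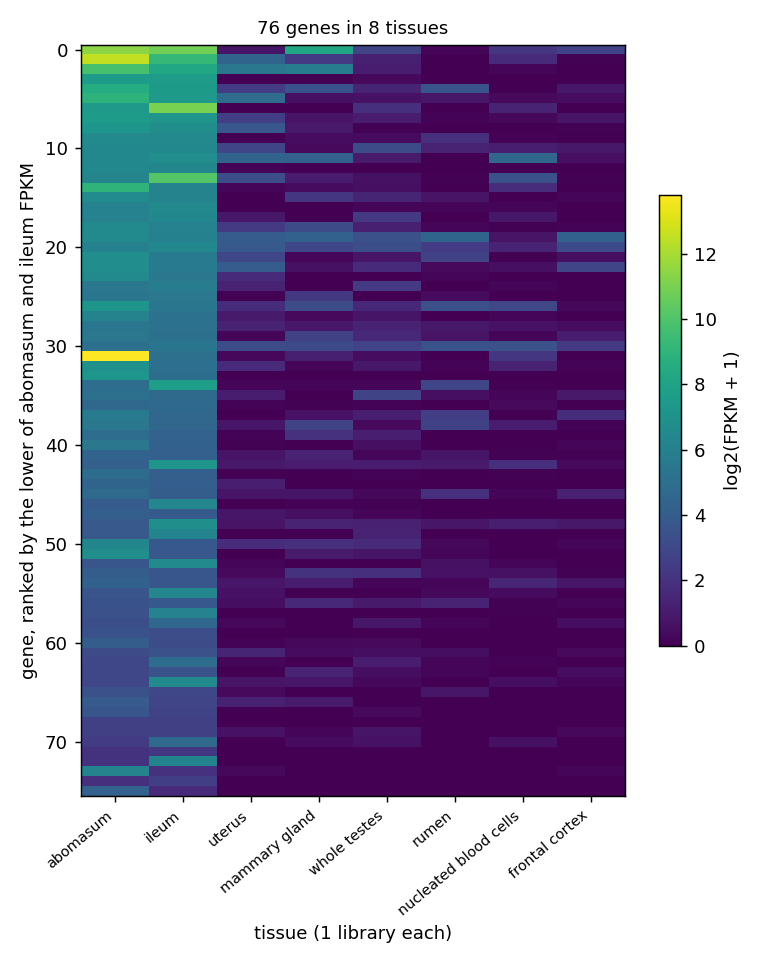
The 76 genes (rows, ranked by the lower of their abomasum and ileum FPKM) in the 8 tissues (columns, 1 library each), coloured by log2(FPKM + 1). The first 2 columns are bright over most rows, and the highest value outside them, 313 FPKM, is that of the top row in mammary gland.

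Ranked by the lower of its abomasum and ileum values, the first gene lay at chr16:4531721-4551646, where 3 transcripts are annotated, ENSBTAT00000026377 among them. Its FPKM was 2688 in abomasum and 1895 in ileum. Mammary gland followed with 313 FPKM, which was also the highest value that any of the 76 genes had outside abomasum and ileum. Whole testes had 6.03 FPKM, frontal cortex 5.78, nucleated blood cells 3.52, uterus 0.721 and rumen 0.141. This gene was thus abundant in 3 tissues, and rumen was its lowest.

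ENSBTAT00000033841 at chr4:25256264-25271426 came next in this ranking. It reached 6009.7 FPKM in abomasum and 594 in ileum, a 10.1-fold difference. The other libraries held 21.2 FPKM in uterus, 4.02 in mammary gland, 2.13 in nucleated blood cells, 1.30 in whole testes and 0.045 in frontal cortex, and it was listed at 0 in rumen. The gene at chr1:144067291-144071071 also leaned to abomasum, with 878 FPKM against 295 in ileum. Its values were 56.1 FPKM in mammary gland and 45.9 in uterus, 1.19 in whole testes and 0.163 in nucleated blood cells, with frontal cortex and rumen listed at 0. These 2 genes had in common that uterus and mammary gland were the nearest of the other tissues and that rumen was listed at 0.

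Among the next most abundant genes, the level was often close to equal in both tissues. ENSBTAT00000063512, in the interval chr19:41719376-41789031, had 196 FPKM in abomasum and 198 in ileum. Its only other value above 0 was 0.278 FPKM in whole testes. The ratio of its lower value plus 1 to the highest of the other tissues plus 1 was 154, the largest among the 76 genes. A neighbour in the same interval had 93.7 FPKM in abomasum and 91.2 in ileum, with 2.69 in rumen and at most 0.352 elsewhere. The gene at chr7:4843442-4910705 had 378 FPKM in abomasum and 183 in ileum, followed by 11.2 in rumen and 9.98 in mammary gland. The gene at chr10:77381300-77384864 had 483 and 176 FPKM, and uterus, at 29.9, was its only other tissue above 1 FPKM. Uterus was next again for the gene at chr18:49726103-49755837, with 4.98 FPKM against 194 in abomasum and 148 in ileum. It was also next for the gene at chr2:107145419-107170045, with 12.6 FPKM against 153 and 114.

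Of the remaining genes among the 12 highest, that at chr7:61042755-61049774 leaned most to ileum, with 2076 FPKM against 175 in abomasum. It was detected in whole testes at 2.80 FPKM and in nucleated blood cells at 1.47, and it was listed at 0 in the 4 other tissues. The gene at chr5:56712767-56738767 had 85.3 FPKM in abomasum and 87.1 in ileum and at most 8.05 elsewhere, in whole testes. The gene at chr21:71530013-71531441 was less restricted. It had 84.9 FPKM in abomasum and 109 in ileum, and 22.3 in nucleated blood cells and 17.7 in mammary gland, with uterus between these. Of the 12 genes, 8 were higher in abomasum, and 9 had less than 1 FPKM in rumen.

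A gene can also be ranked by how far abomasum and ileum stood above the rest. The ratio of the lower value plus 1 to the highest other value plus 1 had a median of 6.09. It was at least 5 in 47 genes, at least 10 in 20 and at least 20 in 9. The 8 largest ratios began at 24.8, and 5 of those genes were also among the 12 most abundant. After the chromosome 19 gene with a ratio of 154 came ENSBTAT00000006960 at chrX:60134287-60136956, with 84.8 FPKM in abomasum, 79.3 in ileum and at most 0.085 elsewhere. The gene at chr3:57702288-57736671 had 69.7 and 88.1 FPKM and at most 0.189 elsewhere. Next was the chromosome 7 gene at 61042755 described above, with a ratio of 46.3. The gene at chr25:14577546-14643306 had 152 FPKM in abomasum, 30.3 in ileum and no value above 0 anywhere else. The genes on chromosomes X and 3 were near-equal in both tissues. That on chromosome 25 was 5.03 times higher in abomasum, and that on chromosome 7 was 11.9 times higher in ileum.

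In 27 genes all 6 other tissues were below 1 FPKM, and in 6 genes they were all listed at 0. Besides the chromosome 25 gene, the latter were mostly low genes. That at chr19:9738376-9888428 had 10.04 FPKM in abomasum and 8.59 in ileum, and that at chr29:45624666-45626149 had 5.14 and 5.15. The gene at chr1:119603878-119631566 had 3.05 and 3.69 FPKM, and that at chr19:44437199-44437928 had 2.66 and 4.83. The gene at chr2:34398011-34408391 had 3.03 FPKM in abomasum and 74.3 in ileum. At these levels the counts are small. If the transcript at chr19:44437199-44437928 filled its interval of 730 bases, the values rested on 17.1 reads in abomasum and 17.4 in ileum.

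The lowest value in abomasum or ileum, 2.23 FPKM in ileum for the gene at chr1:132061810-132073129, corresponded to 12.2 reads on 1000 bases. The same gene had 19.4 FPKM in abomasum.

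The genes just inside the rule were those at chr1:153531288-153590461 (ratio 3.005), chr22:57250457-57257322 (3.03) and chr7:100425877-100449194 (3.05). The first had 6.66 FPKM in abomasum and 10.7 in ileum against 1.55 in mammary gland. The second had 14.9 and 6.26 against 1.40 in uterus, and the last had 93.3 and 66.3 against 21.0 in rumen. Just outside were chr16:27677147-27748095 (2.97), chr18:46864524-46869618 (2.95) and chr26:34424709-34466107 (2.93). The first of these had 444 FPKM in abomasum, 5.06 in ileum and 1.04 in mammary gland. The second had 38.4 and 47.3 with 12.4 in uterus, and the last had 49.8 and 107 with 16.3 in nucleated blood cells. The chromosome 16 gene differed far more between abomasum and ileum than the 3 genes just inside. In all, abomasum and ileum were the 2 highest libraries, with both at least 1 FPKM, for 443 genes. The 76 genes were 17.2% of these, and the next 53 genes had a ratio from 2 to below 3. Genes close to the minimum of 1 FPKM could not reach the ratio of 3, even with no value elsewhere.

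The balance between abomasum and ileum was examined next, although the rule used both values and set a floor for the lower of them. Abomasum was higher in 45 genes (59.2%) and ileum in 31. Among the 11973 genes with at least 1 FPKM in both tissues, 52.2% were higher in abomasum. The median log2 ratio of abomasum to ileum, on FPKM plus 1, was 0.28 in the 76 genes and 0.03 in those 11973. The spread was wider among the 76 genes, with a median size of the log2 ratio of 0.77 against 0.46. The 76 genes were chosen on these same values, while the 11973 had only to reach 1 FPKM in both. Adding 1 to FPKM also shrinks the ratios of low genes, so these contrasts are descriptions only. In 32 genes the levels in abomasum and ileum lay within 1.5 times of each other, in 42 within 2 times and in 69 within 10 times.

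**Figure D3:**
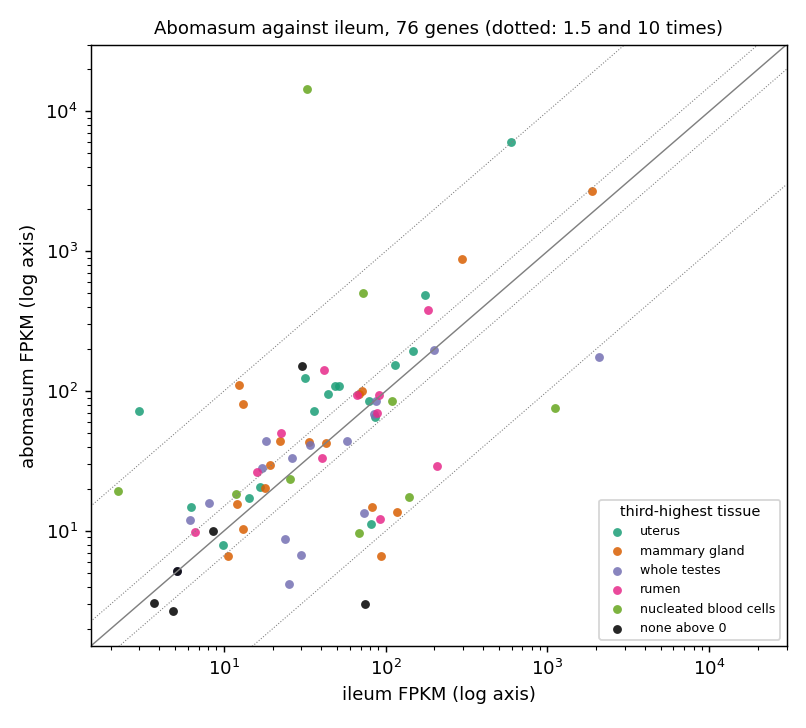
FPKM in abomasum (vertical, log axis) against FPKM in ileum (horizontal, log axis) for the 76 genes, coloured by the tissue with the next-highest level, with the line of equality and dotted lines at ratios of 1.5 and 10. A total of 32 genes lie between the inner dotted lines, 3 genes lie above the upper line of 10 and 4 below the lower line of 10.

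Large differences occurred in both directions. Abomasum was at least 5 times higher in 8 genes and at least 10 times in 3, and ileum was at least 5 times higher in 13 and at least 10 times in 4. The largest difference belonged to the gene in the interval chr5:44421169-44720998. It had 14335.5 FPKM in abomasum, the highest value of the 76 genes, and 32.7 in ileum, a 439-fold difference, and its log2 ratio, on FPKM plus 1, was 8.73. Its other values were 3.47 FPKM for nucleated blood cells, 1.35 for mammary gland, 0.359 for whole testes and 0.216 for uterus, and frontal cortex and rumen were listed at 0. The gene at chr8:105006306-105018465 followed, with 71.9 FPKM in abomasum and 2.98 in ileum, where 2.98 FPKM corresponded to 16.4 reads on 1000 bases. The next was the gene at chr4:25256264-25271426 described above.

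Towards ileum, the largest difference belonged to the gene at chr2:34398011-34408391 given above, with a 24.5-fold difference. The gene at chr8:72394881-72523547 had 75.9 FPKM in abomasum and 1109.96 in ileum, followed by 9.79 for nucleated blood cells, 8.69 for uterus and 1.18 for mammary gland, and less than 1 in the remaining tissues. The gene at chr7:21661202-21665103 had 6.65 FPKM in abomasum and 93.9 in ileum and at most 0.766 elsewhere. These 3 genes and the chromosome 7 gene at 61042755 were the ones with at least 10 times more in ileum.

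The genes were then divided at a ratio of 1.5. The 27 genes higher in abomasum had median values of 80.6 FPKM in abomasum and 22.7 in ileum. The 17 genes higher in ileum had median values of 11.2 and 81.5, and the 32 genes between had 42.9 and 41.6. Among the 27 genes higher in abomasum the next-highest tissue was uterus in 9, mammary gland in 5 and whole testes, rumen and nucleated blood cells in 4 each. Among the 17 genes higher in ileum it was whole testes in 5, mammary gland in 4, nucleated blood cells in 3, rumen in 2 and uterus in 1. Among the 32 between it was mammary gland in 8, whole testes and uterus in 7 each, rumen in 5 and nucleated blood cells in 2.

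Which tissue came nearest to abomasum and ileum varied from gene to gene. Mammary gland and uterus were next in 17 genes each, whole testes in 16, rumen in 11 and nucleated blood cells in 9. In 6 genes no other tissue was above 0, and frontal cortex was next in 0 genes. Many of these positions rested on low values. The next-highest tissue reached at least 1 FPKM in 49 genes, of which mammary gland and uterus accounted for 27. It reached at least 10 FPKM in 11 genes. For comparison, 367 further genes had abomasum and ileum as the highest libraries but missed the ratio of 3. Among them mammary gland was next in 22.1%, uterus in 18.3%, nucleated blood cells in 17.7%, rumen in 16.9%, whole testes in 16.3% and frontal cortex in 8.72%.

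The tissues also differed in how many further genes they kept from the list. With nucleated blood cells left out, 27 genes were added to the 76, with mammary gland left out 26, with rumen left out 21 and with uterus left out 19. Leaving out whole testes or frontal cortex added 9 genes each. No gene of the 76 can be lost in this way.

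The rumen is a compartment of the stomach too, and its values were low for most of the 76 genes. It was listed at 0 in 32 genes and was below 1 FPKM in 62, against 68 for frontal cortex, 60 for nucleated blood cells, 50 for uterus, 50 for mammary gland and 48 for whole testes. Frontal cortex was listed at 0 in slightly more genes, 34. Among all 22808 genes the share with at least 1 FPKM was 52.8% in rumen, 56.3% in frontal cortex, 49.0% in nucleated blood cells, 56.4% in uterus, 55.8% in mammary gland and 63.4% in whole testes. Of the 14 genes with at least 1 FPKM in rumen, 3 reached 10 FPKM. These were the genes at chr7:100425877-100449194 (21.0 FPKM), chr7:4843442-4910705 (11.2) and chr28:28868033-29062925 (10.1).

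The same rule was applied to each pair of tissues to place this count. The 28 pairs shared 991 genes in all, 4.34% of the 22808, and the median pair shared 20.5. Abomasum and ileum ranked as the third pair, after whole testes with frontal cortex (235 genes) and ileum with nucleated blood cells (141). Rumen shared 41 genes with abomasum and 37 with ileum. The levels differed between these groups. In the 41 genes of abomasum and rumen the median FPKM was 34.0 in abomasum, 92.6 in rumen and 3.13 in ileum. In the 37 genes of ileum and rumen it was 81.7 in ileum, 102.8 in rumen and 5.28 in abomasum. All other tissues were below 1 FPKM in 35.5% of the genes of abomasum and ileum, in 21.3% of those of ileum and nucleated blood cells, in 14.6% of those of abomasum and rumen and in 16.2% of those of ileum and rumen. Other pairs had higher shares, among them whole testes with frontal cortex (43.0%), with abomasum (47.6%), with ileum (61.1%) and with uterus (66.7%). These groups share libraries, and no test of their difference was made.

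**Figure D4:**
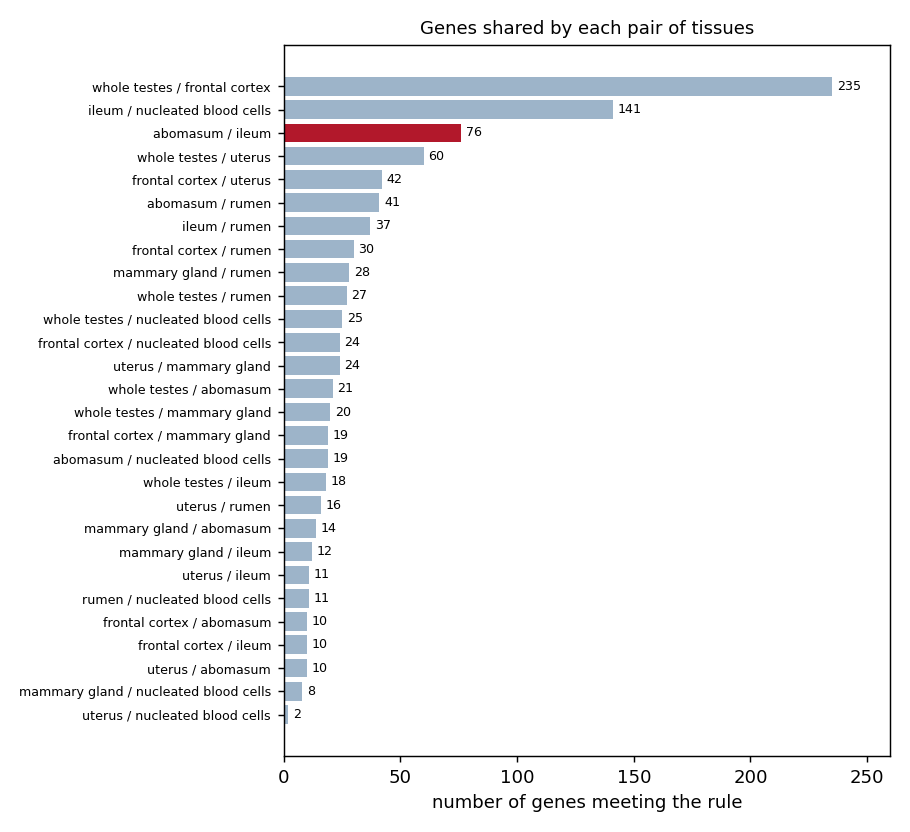
Number of genes (horizontal axis) that met the rule for each of the 28 pairs of tissues, with abomasum and ileum in red. Abomasum and ileum shared 76 genes, the third-highest count after 235 and 141, and the median pair shared 20.5.

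The rule did not use position, and the 76 genes were spread over 24 chromosomes. Chromosomes 1 and 7 carried 8 each, chromosome 19 carried 7 and chromosome 18 carried 5, while 2 lay on the X chromosome. Relative to the genes measured there, chromosome 1 had the highest share, 0.886%. The median interval was 23973 bases against 24612 for all genes. Several transcripts were annotated at 17 of the 76 loci (22.4%), against 9.18% of all genes and 11.4% of the 13178 genes that reached 10 FPKM in any library. The share was 12.1% among the genes shared by ileum and nucleated blood cells and 14.6% among those of abomasum and rumen. It was higher in some smaller groups, at 25.9% of the 27 genes of whole testes and rumen, 26.3% of the 19 of frontal cortex and mammary gland and 27.3% of the 11 of rumen and nucleated blood cells.

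Some of the genes were neighbours. Another of the 76 lay within 100 kilobases for 12 genes (15.8%), while 1.87% of all genes had a member of the list that close. They formed 6 pairs, and no group was larger than a pair. In 4 pairs the overlapping loci shared an interval, and where loci overlap the authors' counting could divide reads between them, so such levels are uncertain. Close neighbours were found in other groups as well. Their share was 28.4% in the genes of ileum and nucleated blood cells, 12.2% in those of abomasum and rumen, 10.8% in those of ileum and rumen and 11.9% in those of whole testes and frontal cortex. Over the 28 pairs the share ran from 0% to 37.5%, the latter in the 16 genes of uterus and rumen.

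The balance between abomasum and ileum was compared within the pairs. In the interval chr15:52184590-52221722, the members of the pair had 17.5 and 13.7 FPKM in abomasum and 139 and 118 in ileum, with log2 ratios of -2.92 and -3.01. Those in chr16:5600155-6172730 had 43.3 and 99.7 FPKM in abomasum and 33.7 and 71.4 in ileum. Those in chr23:26915275-26951902 had 29.7 and 95.6 in abomasum and 19.2 and 68.8 in ileum. The chromosome 19 pair has been given above. In these shared intervals the log2 ratios differed by a median of 0.11, but loci that share reads are not independent.

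Separate intervals held the 2 remaining pairs. The genes at chr23:25632772-25643526 and chr23:25648613-25656498, 5086 bases apart, had 9.69 and 15.0 FPKM in abomasum and 68.3 and 81.9 in ileum, and their log2 ratios differed by 0.32. On chromosome 4, the abundant gene at 25256264 had a neighbour at chr4:25316893-25333477 with 20.5 FPKM in abomasum and 16.8 in ileum. Their log2 ratios differed by 3.06. Over the 2850 pairs that can be formed from the 76 genes the median difference was 1.49, so that 1 of the 2 separate pairs lay below it and the other above.

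**Figure D5:**
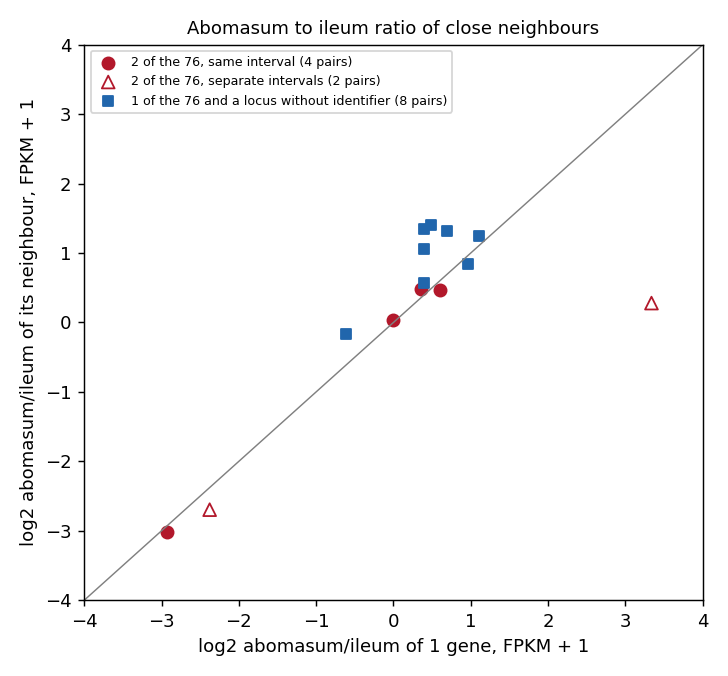
Log2 ratio of abomasum to ileum (FPKM + 1) of a gene (horizontal axis) and of its close neighbour (vertical axis), with the line of equality. The 6 pairs within the 76 genes (red) include 4 that share an interval and lie near the line and the chromosome 4 pair, which differed by 3.06, and of the 8 pairs of a gene with a locus without identifier (blue), 7 lie above 0 on both axes and 3 share a gene.

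Genes outside the list were examined in the same windows. Within 100 kilobases of the 76 genes there were 415 of them. Abomasum and ileum were the highest libraries, with both at least 1 FPKM, for 17 of them (4.10%), against 1.61% of the 22732 genes outside the list. The 17 include loci that share an interval with a gene of the list, where reads may be divided, such as loci on chromosome 5 given below. The median FPKM of the 415 genes was 4.30 in abomasum and 5.31 in ileum. The interval on chromosome 5 that holds the gene with 14335.5 FPKM in abomasum shows how far neighbours can differ. A locus with an identifier in the same interval had 4791 FPKM in ileum and 5.04 in abomasum. Another had 2921 FPKM in abomasum and 2.71 in ileum, and a further one had 1008 and 2.17. Yet another had 3831 FPKM in nucleated blood cells and 845 in ileum and was listed at 0 in abomasum. Reads of overlapping or near-identical loci may be divided differently between them, and the level of the chromosome 5 gene in ileum is uncertain for that reason. Whether this affected its place among the 76 was not tested.

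Levels at loci without an identifier were not used to choose the genes. A locus of this kind that met the same rule on its own values lay within 5 kilobases of 6 of the 76 genes (7.89%), against 0.114% of all genes. There were 8 such neighbours, of which 3 lay beside the chromosome 18 gene at 49726103. They occupied chr18:49755915-49768099, which starts 77 bases beyond it, with 65.5, 16.6 and 14.0 FPKM in abomasum and 43.9, 7.48 and 4.92 in ileum. Beside the gene at chr3:33749803-33757985, which had 71.8 FPKM in abomasum and 36.2 in ileum, the locus at chr3:33760989-33767740 had 74.9 and 41.2. Inside the interval of the gene at chr15:57230844-57240996, with 26.4 and 16.0 FPKM, a locus without identifier had 32.7 and 12.5. The neighbour was higher in the same tissue as the gene in all 8 cases, of which 7 were higher in abomasum and 3 involved the same gene. Abomasum was also higher in 26 of all 30 loci without identifier that met the rule, so the shared direction says little about the pairs. Such loci can be unannotated parts of the genes beside them, and that was not tested.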

How the data were processed

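RNA-Seq of 8 cattle tissues was analysed, 1 library per tissue. Groups were taken from the tissue label of each sample. According to the methods and the submitters' processing notes, the authors filtered single-end reads, aligned them to UMD3.1 with TopHat2 (version 2.0.13) and obtained levels with Cufflinks at default parameters. The authors deposited FPKM values, scaled between libraries by the software, for each of 36801 loci. The table also holds the authors' fold changes, test statistics and p-values for pairs of tissues, which were not used. FPKM of very abundant genes depends on the share they take of a library, and levels of overlapping loci depend on how reads were divided.

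Loci with an identifier (24886) were reduced to the 22808 that span at least 300 bases. With 1 library per tissue no test was run. Values were compared as FPKM, and ratios to the next-highest tissue were taken on FPKM + 1, which understates them for low genes. Depth was recovered from loci of 88 to 130 bases without identifier. Their effective length was modelled from fragments with a mean of 200 and an SD of 80 bases and a lower limit of 87 bases. The depth was that at which at least 95% of these loci had whole reads within 0.03, and the share reached was 97.7% to 100%. Neighbours were loci with a gap of at most 100 kilobases (genes) or 5 kilobases (loci without identifier).

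Genes named are the 12 with the highest lower value, the 8 with the largest ratio, the 3 with the largest abomasum to ileum ratio in each direction, and the 3 on each side of the threshold. Genes named as neighbours, as listed at 0 elsewhere or for their share of summed FPKM were chosen after their values were seen, and some of the 8 are not repeated by name. The genes and the lists were chosen with earlier results of these data known. Lists of marker genes by symbol were not analysed here, because no identifier matched a symbol in the RefSeq table of ARS-UCD2.0. Alternatives covered the ratio, pseudocount, minimum FPKM, span, loci without identifier, scaling, tissues left out and distances. The code that applies the rule was checked on simulated data with planted genes. That check does not show how often genes meet the rule by chance. Python 3.11.15, numpy 2.4.6, pandas 2.3.3 and scipy 1.17.1 were used.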

Additional observations from a re-analysis of the deposited data

Results flagged for a closer look

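Loci without an identifier are outside the set of genes described above, and 30 of 9373 that span at least 300 bases met the same rule for abomasum and ileum. Most of them had more than the 3 reads that a count of 0 allows if the transcript filled its span. This setting gives the most reads a locus can have, because a transcript can be shorter than its interval, above all where the interval is long or shared. The locus at chr13:41846133-41846488 had only those 3 reads in ileum, with 2.97 FPKM over 356 bases. The share of the 30 (0.320%) was close to the 0.333% among genes. Abomasum was higher in 26 of the 30. The lower of the abomasum and ileum values had a median of 6.38 FPKM and reached 142 FPKM at chr26:42768493-42769273, which had 1447 FPKM in abomasum and at most 8.44 outside abomasum and ileum. It has no gene within 5 kilobases, but a gene of the list at chr26:42782329-42813559, with 501 FPKM in abomasum and 72.5 in ileum, lay within 20 kilobases. Of the 30, 8 lay within 5 kilobases of a gene of the list, 8 near another gene and 14 near no gene of at least 300 bases. Whether they are parts of genes, separate transcripts or background was not tested.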

How the results depend on the processing

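Counts and median levels were considered stable if they moved by no more than 1.5 times, and the median log2 ratio if its move was smaller than a 1.5-fold change. Of 48 alternative values 38 were stable, but not all alternatives could have moved the list in both directions. Dropping the FPKM minimum could change nothing, because the required ratio alone asks for more than 1 FPKM. A smaller pseudocount or a tissue left out can only add genes to the list. The median log2 ratio, the only one with a direction, kept its sign in its 5 alternatives. Of the 10 that moved, 9 followed from the ratio required, which admits more or fewer genes by construction. A ratio of 2 gave 129 genes, with whole testes next in 25, frontal cortex in 5, mammary gland in 30 and rumen in 22. A ratio of 5 gave 47 genes, with mammary gland next in 11, rumen in 4 and nucleated blood cells in 5. The number of genes with a like locus without identifier close by was 3 within 1 kilobase, against 6 within 5 kilobases. Rescaling the libraries to a common median kept 75 of the 76 genes and added 3. A pseudocount of 0.01 added 30 genes and lost 0. Counting only intervals with 1 locus, an alternative chosen after seeing the data, left 54 genes. No paired analysis was possible because no result comes from a test, with 1 library for each tissue. Low values in ileum and mammary gland, the shallowest libraries, have the largest counting error.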
